A study of Mus musculus with 4 samples.

Results

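The genes described here are 10 members of the ATF4 arm of the integrated stress response, measured by RNA-seq in mouse liver. They include the transcription factors *Atf4*, *Atf5* and *Ddit3*, the feedback genes *Trib3* and *Ppp1r15a*, and *Chac1*, which encodes an enzyme that breaks down glutathione. The others are the mTORC1 inhibitors *Sesn2* and *Ddit4*, and the amino acid synthesis genes *Asns* and *Psat1*. All 10 were taken by symbol from a table of 35739 genes. The 10 symbols matched 11 rows, since *Ddit3* has a second identifier that was listed at 0 in every library. The groups were 2 libraries from WT mice (replicates 2 and 3) and 2 libraries from *Usp21* KO mice (replicates 1 and 3). The KO allele is constitutive, made by Cre excision of exons 3 and 4 of *Usp21*, which encodes a deubiquitylating enzyme, and the Cre line was not named in the sources used here. All mice of the study were littermates of 10 to 11 weeks from crosses of B6 with a B6 × 129/Sv mixed background, kept on a normal diet with a light and a dark phase of 12 h each. The labels number the libraries within each genotype without naming the animals, the time of day or the feeding state at collection, so p-values measure the spread between these libraries only.

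In the integrated stress response, the kinases PERK, GCN2, PKR and HRI phosphorylate the initiation factor eIF2, which slows most protein synthesis while the mRNA of *Atf4* is translated more. ATF4 then binds DNA as a dimer with C/EBP and related factors and switches on genes for amino acid supply and redox balance, together with genes that feed back on the response. In the liver the pathway is known for its response to amino acid shortage and to endoplasmic reticulum stress. ATF4 protein is set largely by translation, and only mRNA was measured here.

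The composite C/EBP-ATF response element through which ATF4 acts can be written as TGATGNAAN, and the cyclic AMP response element as TGACGTCA. Both were searched on either strand in the RefSeq promoters of build GRCm38.p6, which run from 250 bases before to 50 bases after each start. All 10 genes had an entry, with 12 promoters in total. The composite element was found in 3 of these 12 promoters and in 3.95% of 32851 promoters of all genes, and TGACGTCA was found in 1 of the 12 and in 1.79% of all. The 4 stretches of 30 bases around the matches are shown because they are the members in which a textbook ATF-type element lies near the start, so that these members can be compared with the others. They read 5′ to 3′ on the strand of the gene, with the match in capitals.
*Chac1* promoter (chr2:119351038-119351067, plus strand): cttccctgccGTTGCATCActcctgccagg
*Trib3* promoter (chr2:152344028-152344057, minus strand): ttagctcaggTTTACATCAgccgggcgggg
*Asns* promoter (chr6:7693213-7693242, minus strand): cccagccacaTGATGAAACttcccgcacgc
*Ppp1r15a* promoter (chr7:45526262-45526291, minus strand): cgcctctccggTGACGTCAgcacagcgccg
In *Chac1* and *Trib3* the element lies on the strand opposite to the gene, and the *Trib3* match falls just after the RefSeq start. A match is a description of the letters only, and a promoter without one may hold an element outside this window.

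The values compared are TPM, a length-corrected abundance relative to all transcripts of the library that the authors estimated with salmon. Tested genes are the 9581 genes whose mean reached 1 TPM. The genotypes were compared on log2(TPM + 1) with limma, two-sided, with Benjamini-Hochberg adjustment over these genes, where the added 1 shrinks the differences of genes at a few TPM. Of the 10 genes, 9 passed the filter and *Psat1* (mean 0.566 TPM) did not and was fitted without it. Hepatocyte markers summed to between 61340 and 84470 TPM per library. *Usp21* itself had WT values of 4.07 and 6.29 TPM and KO values of 1.64 and 2.93 TPM. TPM keeps no depth, but its lowest steps in genes with 1 annotated transcript gave an estimate of 0.179, 0.23, 0.193 and 0.237 TPM per fragment and kilobase in WT replicates 2 and 3 and KO replicates 1 and 3. The fragment numbers given here rest on that estimate and on the longest coding transcript of each gene.

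By level, *Atf5* and *Atf4* stood apart from the other members, and these were the only neighbours in the order of mean TPM whose values did not overlap with the next gene down. The lowest *Atf5* value was 84.1 TPM and the highest *Atf4* value 53.8 TPM, while the lowest *Atf4* value was 35.9 TPM and the highest *Ppp1r15a* value 9.27 TPM. The 8 others stayed under 11 TPM in every library, in the order *Ppp1r15a* (mean 7.31 TPM), *Ddit3* (5.56), *Trib3* (4.03), *Chac1* (3.1), *Sesn2* (2.44), *Ddit4* (1.88), *Asns* (1.07) and *Psat1* (0.566), and each overlapped with its neighbour. The 2 most abundant members therefore rest on an estimated 232 to 1247 fragments per library, whereas *Asns* and *Psat1* rest on 1 to 21.

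**Figure D1:**
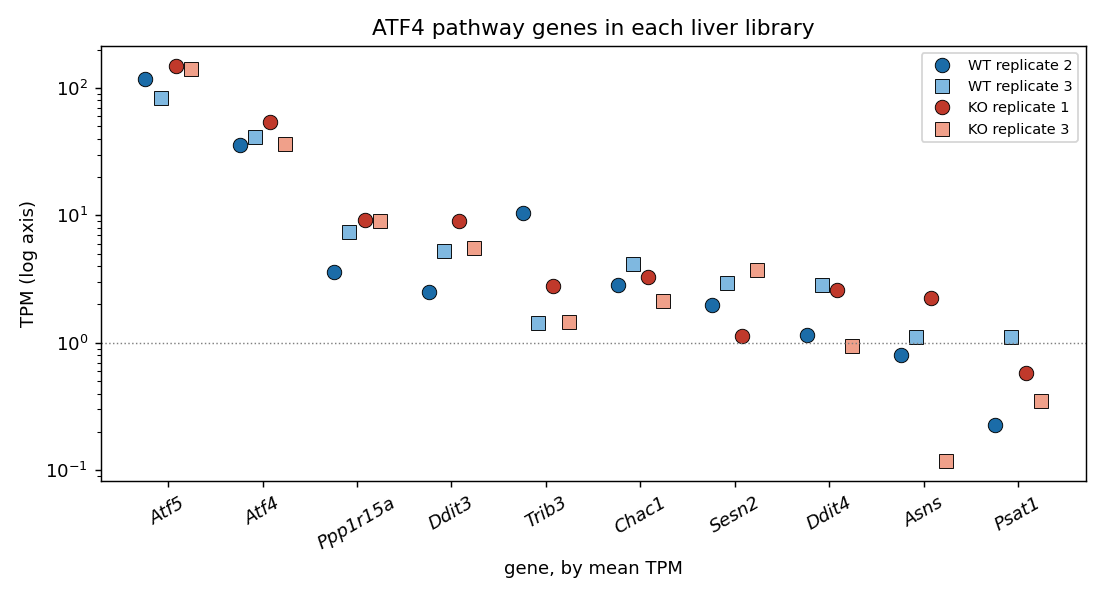
TPM (log axis) of the 10 genes in each of the 4 libraries, ordered by mean TPM, with WT in blue, *Usp21* KO in red and 1 TPM as a dotted line. *Atf5* and *Atf4* lie above 30 TPM in every library, the red points lie above the blue points for *Atf5*, *Ddit3* and *Ppp1r15a*, and WT replicate 2 stands alone for *Trib3* at 10.4 TPM.

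By genotype, no member passed the adjusted threshold: 0 of 10 had an adjusted p under 0.05 in limma, and 0 of 10 had an unadjusted p under 0.05. Over all tested genes the shares were 0.0835% (8 genes) and 10.5% (1005 genes). None of the 10 reached 2-fold on the log2(TPM + 1) scale, compared with 3.68% of the tested genes. By mean log2(TPM + 1), 4 members were higher and 6 lower in KO, whereas 66.7% of tested genes were higher. Both KO libraries lay above both WT libraries for 3 members (*Atf5*, *Ddit3* and *Ppp1r15a*) and below them for 0, compared with 34.4% and 10.9% of the tested genes. A count of 3 of 10 is thus near the background of 34.4%. With the libraries scaled to equal upper quartiles these shares were 24.5% and 18.6%, and 3 members were still higher without overlap. The median log2 fold change was -0.07 over the 10 members and 0.15 over all tested genes. Equal upper quartiles for the libraries moved the former to -0.15 and the latter by more than 0.1, to 0.04. The share of tested genes higher in KO went from 66.7% to 54%, while the 4 members that were higher and the 6 that were lower stayed so. An exact permutation test of a single gene has 0.333 as its smallest p in this design.

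**Figure D2:**
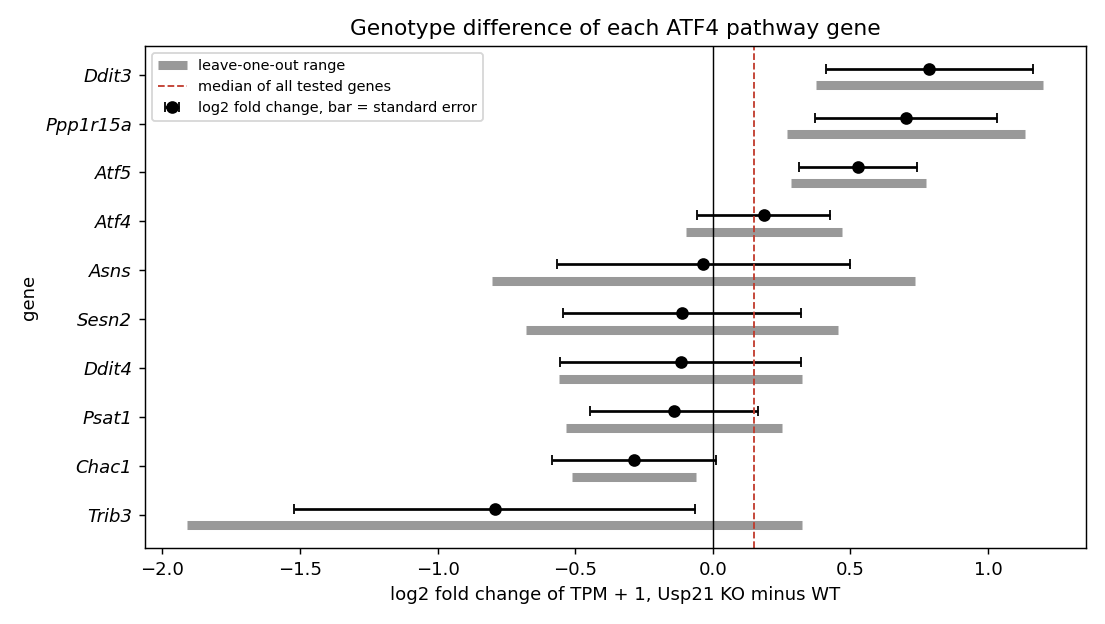
Log2 fold change of TPM + 1 (KO minus WT) of each gene with its standard error (black), and the range of the same value when each library is left out in turn (grey). The grey range stays above 0 for *Atf5*, *Ddit3* and *Ppp1r15a*, stays below 0 for *Chac1* and crosses 0 for the other 6 genes. The dashed line is the median of all tested genes (0.15).

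Among the transcription factors, *Atf4* (ENSMUSG00000042406, chromosome 15, 80255184 to 80257541, plus strand, GRCm38), the activator that gives the pathway its name, had WT values of 35.9 TPM (replicate 2) and 41.5 TPM (replicate 3) and KO values of 53.8 TPM (replicate 1) and 36.0 TPM (replicate 3), the order used for all genes. KO replicate 3 sat at the level of WT replicate 2, so the genotypes overlapped, and only KO replicate 1 was above the rest. The means were 38.7 ± 3.96 TPM in WT and 44.9 ± 12.6 TPM in KO (SD, n = 2 each). The log2 fold change was 0.19 (standard error 0.24, 95% interval -0.41 to 0.79, adjusted p = 0.784 in limma). It was -0.10 without KO replicate 1. A change of 2-fold in either direction on this scale thus lies outside the interval, whereas smaller ones lie within it.

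*Atf5* (ENSMUSG00000038539, chromosome 7, 44812256 to 44816658, minus strand) encodes a related activator whose translation is controlled like that of ATF4 and which is abundant in liver. It had WT values of 118.4 and 84.1 TPM and KO values of 149.3 and 139.6 TPM, so the genotypes did not overlap. The means were 101.2 ± 24.3 and 144.4 ± 6.89 TPM (SD, n = 2 each). Between genotypes *Atf5* differed by a log2 fold change of 0.53 (standard error 0.21, 95% interval -0.004 to 1.06, unadjusted p = 0.0513, adjusted p = 0.475 in limma), the smallest p among the members. The gap was widest against WT replicate 3, and the log2 fold change was 0.28 without that library and 0.77 without WT replicate 2. Of the 31-base stretches in its transcripts, 2.76% also occur in transcripts of *Il4i1* and *Nup62*, which overlap *Atf5* on the other strand and stayed at or under 4.38 TPM.

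*Ddit3* (ENSMUSG00000025408, chromosome 10, 127290774 to 127296288, plus strand) encodes CHOP, a C/EBP family factor that ATF4 induces and that is linked to cell death under prolonged stress. It had WT values of 2.51 and 5.22 TPM and KO values of 8.95 and 5.55 TPM, or an estimated 10, 16, 32 and 16 fragments. WT replicate 3 and KO replicate 3 were nearly level, and the groups were apart only through the low WT replicate 2 and the high KO replicate 1. Its log2 fold change came to 0.79 (standard error 0.38, unadjusted p = 0.0835, adjusted p = 0.498 in limma), with a 95% interval of -0.14 to 1.72. It fell to 0.38 without WT replicate 2 and to 0.49 without KO replicate 1, and was 1.20 and 1.09 without the replicate 3 library of WT and KO. Its transcripts share 4.38% of their 31-base stretches with the second *Ddit3* identifier and 2.22% with *Mars*, which overlaps on the other strand, so a part of its reads could have been divided differently.

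*Ddit3* and *Atf5* were also the 2 members above 0 in the second table, in which the authors counted aligned reads with HTSeq and scaled them. There, whole reads could be recovered: 4 and 5 in WT and 10 and 6 in KO for *Ddit3*, and 0 and 1 in WT and 2 and 3 in KO for *Atf5*. Both had more of these reads in the KO libraries, with adjusted p = 0.821 for each in edgeR's quasi-likelihood test on these reads. Genes on the other strand overlap both, *Nup62* and *Il4i1* for *Atf5* and *Mars* for *Ddit3*. Such genes also overlap *Ppp1r15a* and *Psat1*. Whether the few reads came from these neighbours was not tested. The other members were listed at 0 there in every library, *Atf4* included, as were 428 of the 682 genes that reached 100 TPM in all 4 libraries. *Atf5*, with 3 reads or fewer per library there, has an estimated 590 to 1247 fragments in the TPM table.

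Among the feedback genes, *Ppp1r15a* (ENSMUSG00000040435, chromosome 7, 45522916 to 45526268, minus strand) encodes GADD34, which brings protein phosphatase 1 to eIF2 and so ends the response. It had WT values of 3.61 and 7.40 TPM and KO values of 9.27 and 8.96 TPM, with WT replicate 2 well below the other 3 libraries. The means were 5.51 ± 2.68 and 9.12 ± 0.22 TPM (SD, n = 2 each), and the log2 fold change was 0.70 (standard error 0.33, unadjusted p = 0.0821, adjusted p = 0.496 in limma). Its 95% interval ran from -0.12 to 1.53. Without WT replicate 2 the log2 fold change was 0.27, and without WT replicate 3 it was 1.13. *Ppp1r15a* is the member with TGACGTCA next to its start.

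*Trib3* (ENSMUSG00000032715, chromosome 2, 152337422 to 152344032, minus strand) encodes a pseudokinase that ATF4 and CHOP induce and that dampens ATF4. It had 10.4 TPM in WT replicate 2 and 1.43 TPM in WT replicate 3, compared with 2.77 and 1.47 TPM in KO. The 2 WT libraries were the highest and the lowest of the 4, a 7.28-fold range within 1 genotype, with an estimated 107 fragments in the first and 11 in the second. On the log2 scale the change was -0.79 (standard error 0.73, 95% interval -2.61 to 1.02, adjusted p = 0.692 in limma). It turned to 0.32 without WT replicate 2 and fell to -1.91 without WT replicate 3, so the direction rested on a single WT library. WT replicate 2, the highest library for *Trib3*, was the lowest for *Atf4*, *Ddit3*, *Ppp1r15a* and *Psat1*.

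*Chac1* (ENSMUSG00000027313, chromosome 2, 119351229 to 119354381, plus strand) encodes an enzyme that breaks down glutathione. It had WT values of 2.85 and 4.15 TPM and KO values of 3.27 and 2.12 TPM, and the genotypes overlapped. Its log2 fold change of -0.29 (standard error 0.30, 95% interval -1.03 to 0.46, adjusted p = 0.725 in limma) stayed below 0 with any library left out (-0.51 to -0.06). It was the only one of the 6 members with a negative value for which this held.

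Among the inhibitors of mTORC1, the kinase complex that drives growth when amino acids are plentiful, *Sesn2* (ENSMUSG00000028893, chromosome 4, 132492032 to 132510501, minus strand) encodes a leucine sensor. It had 1.99 and 2.93 TPM in WT, and the KO libraries bracketed these with 1.14 and 3.69 TPM. *Ddit4* (ENSMUSG00000020108, chromosome 10, 59949669 to 59951834, minus strand), which encodes REDD1 and also responds to glucocorticoids and low oxygen, had WT values of 1.15 and 2.83 TPM and KO values of 2.59 and 0.95 TPM. For *Ddit4* both genotypes held 1 higher and 1 lower library at about the same pair of levels. The log2 fold changes were -0.11 (standard error 0.43) for *Sesn2* and -0.12 (standard error 0.44) for *Ddit4*, with adjusted p = 0.932 and 0.931 in limma. Leaving out KO replicate 1 turned *Sesn2* to 0.45, leaving out KO replicate 3 turned *Ddit4* to 0.32, and leaving out WT replicate 3 turned both, to 0.08 and 0.30. The 2 KO libraries were ordered oppositely in the 2 genes: KO replicate 1 was the lowest library for *Sesn2*, and KO replicate 3 for *Ddit4*.

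Among the synthesis genes, *Asns* (ENSMUSG00000029752, chromosome 6, 7675169 to 7693254, minus strand) encodes asparagine synthetase, a classical ATF4 target. It had WT values of 0.803 and 1.11 TPM and KO values of 2.25 and 0.117 TPM. The KO libraries were the highest and the lowest of the 4, a 19.1-fold range within 1 genotype, and the lowest rests on an estimated single fragment (1, compared with 21 in KO replicate 1). *Asns* passed the filter of 1 TPM through KO replicate 1. Its log2 fold change of -0.03 (standard error 0.53, 95% interval -1.36 to 1.29, adjusted p = 0.984 in limma) turned to 0.73 when KO replicate 3 was left out and to 0.08 when WT replicate 3 was, and fell to -0.80 without KO replicate 1. *Psat1* (ENSMUSG00000024640, chromosome 19, 15904678 to 15947337, minus strand), an enzyme of serine synthesis, had WT values of 0.227 and 1.11 TPM and KO values of 0.577 and 0.35 TPM, or between 3 and 12 estimated fragments, and shares 2.18% of its 31-base stretches with a pseudogene listed at 0. The log2 fold change of *Psat1* was -0.14 (standard error 0.30, fitted without the filter, adjusted p = 0.881 in limma) and 0.25 without WT replicate 3.

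The 3 members with the composite element near the start, *Chac1*, *Trib3* and *Asns*, had log2 fold changes of -0.29, -0.79 and -0.03. All 3 had overlapping genotypes, as did *Atf4*, *Sesn2*, *Ddit4* and *Psat1* without such a match. Of all tested genes, 34.4% were higher and 10.9% lower in KO without overlap. The libraries in which the 3 members were highest differed: WT replicate 3 for *Chac1*, WT replicate 2 for *Trib3* and KO replicate 1 for *Asns*. A part of the element in these values was not tested.

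The spread within a genotype can be set beside that of other genes of the same level. In all 9 tested members the residual SD of log2(TPM + 1) was above the value that limma's trend gives for a gene of that level. The same held for 45.1% of the tested genes. The residual SD was also above the trend in *Psat1* (0.407, with 0.211), whose trend comes from the fit without the filter. It was closest to the trend for *Chac1* (0.309, with 0.292 for the trend) and farthest for *Trib3* (1.16, with 0.292) and *Asns* (0.778, with 0.324). KO replicate 1 was the highest library for 5 members and WT replicate 3 for 3, while WT replicate 2 was the lowest for 4 and KO replicate 3 for 3. Over all tested genes, KO replicate 1 was the highest library for 45.9%, WT replicate 3 the highest for 15.2%, WT replicate 2 the lowest for 32.6% and KO replicate 3 the lowest for 22.9%. Markers of other cells also differed between the libraries: those of Kupffer cells and macrophages summed to 96.5 TPM in KO replicate 1 and to between 182.5 and 248 TPM in the others, those of cholangiocytes to 38.0 TPM in KO replicate 1 and between 14.6 and 24.5 TPM in the others, and those of lymphocytes and neutrophils to 44.0 TPM in WT replicate 3 and under 7 TPM in the others. All markers of these lists were above 0 in 1 or more libraries, and their part in the values of the members was not tested. In whole liver, fewer cells of a type and less RNA per cell cannot be told apart.

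Upstream of ATF4, the list of eIF2 kinases, the eIF2 phosphatase and the exchange factor eIF2B had 15 tested genes of 16. By mean, 10 were higher and 5 lower in KO, 0 passed the adjusted threshold and 0 had an unadjusted p under 0.05 in limma. The median log2 fold change was 0.10, but with equal upper quartiles it was -0.02 and 7 of the 15 were higher. Of all tested genes, 66.7% were higher in KO (54% with equal upper quartiles) and 10.5% had an unadjusted p under 0.05 in limma. These shares also stand beside the counts of the lists that follow. *Eif2ak3*, which encodes the endoplasmic reticulum kinase PERK, had WT values of 1.84 and 1.63 TPM and KO values of 3.44 and 2.33 TPM (log2 fold change 0.49, adjusted p = 0.536 in limma). *Eif2ak2* (PKR) had WT values of 2.18 and 2.27 TPM and KO values of 3.18 and 2.8 TPM, again without overlap. In all, 5 genes of the list were higher and 4 were lower in KO without overlap. Over all tested genes the shares were 34.4% and 10.9% (24.5% and 18.6% with equal upper quartiles). The 4 lower genes were *Eif2b3* (log2 fold change -0.54), *Ppp1ca* (-0.32), *Eif2b5* (-0.15) and *Eif2s1* (-0.05). *Eif2ak1* (HRI), at 10.4 to 12.4 TPM, and *Eif2ak4* (GCN2), at 0.678 to 0.921 TPM, overlapped. The smallest p in the list belonged to *Gcn1*, the activator of GCN2, with WT values of 3.52 and 3.40 TPM and KO values of 6.96 and 4.26 TPM (log2 fold change 0.54, unadjusted p = 0.112), followed by *Eif2s3x*, a subunit of eIF2, with a log2 fold change of 0.32.

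Among the dimer partners and regulators of ATF4, 6 of 10 tested genes were higher in KO by mean and 4 were lower, with a median log2 fold change of 0.09 (0.00 and 5 of 10 with equal upper quartiles), and 1 had an unadjusted p under 0.05. This was *Cebpg*, a C/EBP factor that pairs with ATF4, with WT values of 8.15 and 9.47 TPM and KO values of 14.0 and 12.7 TPM. *Cebpg* had a log2 fold change of 0.55 (standard error 0.20, unadjusted p = 0.0376, adjusted p = 0.465 in limma), and the groups did not overlap. *Cebpb*, another partner, had WT values of 51.7 and 156.4 TPM and KO values of 81.9 and 76.8 TPM, so that both KO libraries lay between the WT libraries. *Ndrg1* (log2 fold change 0.98) and *Egln3* (0.35) followed *Cebpg* by p, and both overlapped. *Atf3*, an early stress factor, was under 1 TPM in every library.

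Genes of amino acid supply went both ways. Of 15 enzymes of serine, glycine, proline and asparagine synthesis and one-carbon metabolism, 10 were tested. *Phgdh*, *Mthfd1l*, *Aldh1l2*, *Aldh18a1* and *Pycr1* were under the filter and are not in the counts. By mean, 5 of the 10 were higher in KO and 5 were lower, with a median log2 fold change of 0.12 that turned to -0.02 with equal upper quartiles. *Got1*, the cytosolic aspartate aminotransferase, had WT values of 98.1 and 83.8 TPM and KO values of 263.2 and 150.5 TPM. Its log2 fold change of 1.13 (standard error 0.29, unadjusted p = 0.00961, adjusted p = 0.464 in limma) was the only one of the list at 2-fold, and it was 0.72 without KO replicate 1 and 0.99 with equal upper quartiles. *Cbs* (log2 fold change 0.68) was higher and *Glul*, the glutamine synthetase (-0.49), lower in both KO libraries than in both WT libraries, with unadjusted p = 0.0817 and 0.0967 in limma. *Phgdh*, the first enzyme of serine synthesis, stayed under 1 TPM. *Mthfd2*, a mitochondrial folate enzyme, had WT values of 0.776 and 0.351 TPM and KO values of 0.36 and 3.18 TPM, and only KO replicate 3 stood out. *Mthfd2* passed the filter of 1 TPM through that library and is among the 5 genes counted as higher.

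Of 13 amino acid transporters, 7 were tested, of which 5 were higher in KO by mean (4 with equal upper quartiles), with a median log2 fold change of 0.27 (0.14 with equal upper quartiles). An unadjusted p under 0.05 was found for 1 that was higher and 1 that was lower, and 0 passed the adjusted threshold in limma. *Slc38a3*, a glutamine transporter, had WT values of 485.2 and 491.2 TPM and KO values of 308.2 and 267.9 TPM (log2 fold change -0.76, standard error 0.17, unadjusted p = 0.00483, adjusted p = 0.443 in limma). *Slc7a2*, which carries arginine and lysine, went the other way with WT values of 45.4 and 35.1 TPM and KO values of 78.2 and 58.4 TPM (log2 fold change 0.75, unadjusted p = 0.0189). *Slc38a2*, the transporter known to respond to amino acid shortage, had WT values of 15.3 and 17.9 TPM and KO values of 20.8 and 31.8 TPM (log2 fold change 0.61, unadjusted p = 0.0575). *Slc7a11*, the cystine transporter, was listed at 0 in every library. Among the cytosolic aminoacyl-tRNA synthetases and the tRNA exporter *Xpot*, 9 of 12 tested genes were higher and 3 lower in KO. With equal upper quartiles 7 of them were higher. Of all tested genes, 66.7% were higher (54% with equal upper quartiles). The median log2 fold change of the 12 was 0.25 (0.12 with equal upper quartiles), and 0 of them had an unadjusted p under 0.05 in limma. The smallest p values belonged to *Tars1* (log2 fold change 0.47), *Cars1* (0.46) and *Nars1* (0.28), all with non-overlapping groups.

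The list of secreted and other stress targets of ATF4 and CHOP had 9 of 11 tested genes higher and 2 lower in KO. Its median log2 fold change was 0.34, and 7 genes were higher in KO without overlap. Equal upper quartiles left 7 of 11 higher and a median of 0.21. Of all tested genes, 66.7% were higher in KO and 34.4% were so without overlap (54% and 24.5% with equal upper quartiles). Of the list, 0 passed the adjusted threshold in limma, and 2 had an unadjusted p under 0.05, compared with 10.5% of all tested genes. *Cdkn1a*, which encodes the cell cycle inhibitor p21 and is best known as a p53 target, had WT values of 0.266 and 2.17 TPM and KO values of 14.2 and 9.10 TPM. On the log2 scale *Cdkn1a* differed by 2.63 (standard error 0.49, unadjusted p = 0.00207, adjusted p = 0.373 in limma), and with any library left out it was between 1.97 and 3.29. *Sqstm1*, an autophagy receptor, had WT values of 252.8 and 231.5 TPM and KO values of 363 and 333.4 TPM (log2 fold change 0.52, unadjusted p = 0.0212), and *Herpud1*, of protein degradation at the endoplasmic reticulum, had a log2 fold change of 0.34 (unadjusted p = 0.0743). The stress hormone *Gdf15* had WT values of 1.10 and 4.57 TPM and KO values of 5.26 and 4.97 TPM, with WT replicate 2 alone below the rest, as for *Ppp1r15a*. The hormone *Fgf21* was listed at 0 in WT replicate 2 and had 1.17 TPM in WT replicate 3, with KO values of 0.492 and 1.60 TPM.

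**Figure D3:**
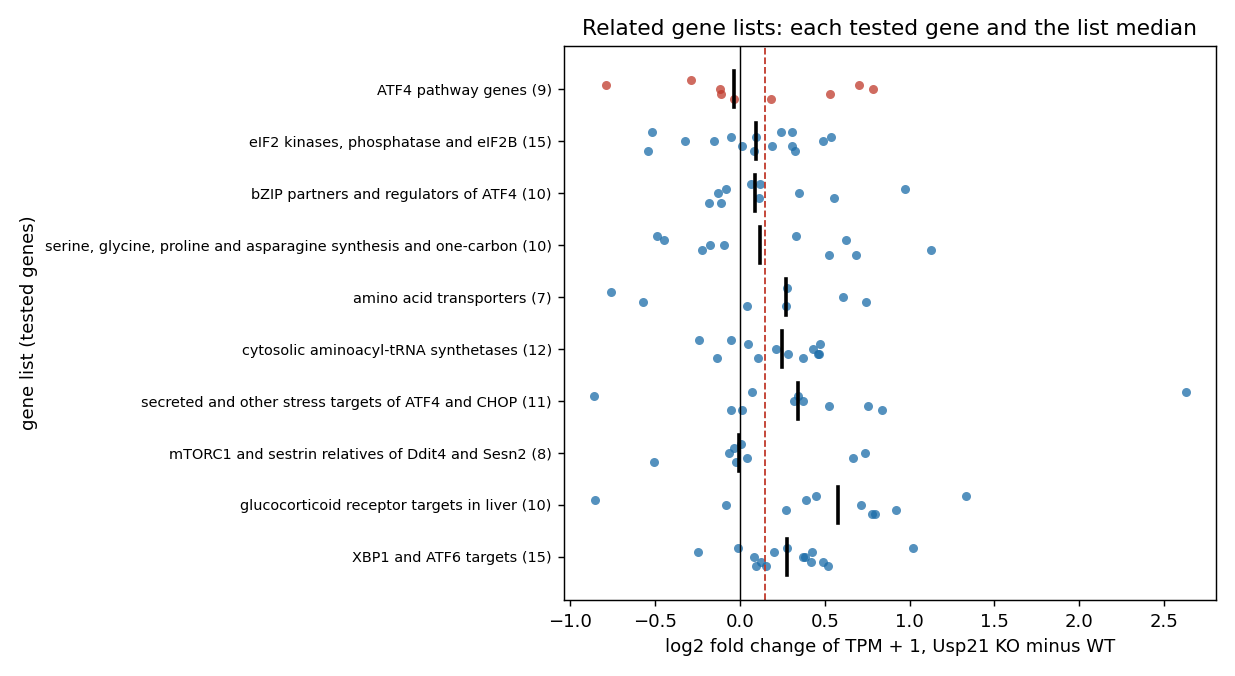
Log2 fold change of TPM + 1 (KO minus WT) of every tested gene in the 9 ATF4 pathway genes that passed the filter (red) and in each related list (blue), with the median of each list as a black bar and the median of all tested genes as a dashed line (0.15). The pathway genes are spread on both sides of 0, and *Cdkn1a* is the point at 2.63.

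*Sesn2* and *Ddit4* were set beside their relatives and the mTORC1 machinery, with 4 of 8 tested genes higher and 4 lower in KO and a median log2 fold change of -0.01 (2 higher and -0.12 with equal upper quartiles). *Tsc1*, of the complex through which REDD1 acts, had WT values of 1.51 and 1.12 TPM and KO values of 3.20 and 2.53 TPM (log2 fold change 0.74, unadjusted p = 0.0344, adjusted p = 0.464 in limma). *Sesn3*, a paralogue of *Sesn2*, had WT values of 1.05 and 1.29 TPM and KO values of 2.67 and 2.23 TPM (log2 fold change 0.67, unadjusted p = 0.0438). Neither overlapped, whereas *Sesn1* did, between 2.27 and 2.69 TPM. *Depdc5*, with the next smallest p, overlapped as well (log2 fold change -0.51).

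Since *Ddit4* also responds to glucocorticoids, targets of their receptor in liver were compared. In that list 8 of 10 genes were higher in KO and 2 were lower, with a median log2 fold change of 0.58 (8 higher and 0.45 with equal upper quartiles). An unadjusted p under 0.05 was found for 5 genes that were higher and 1 that was lower, and 0 passed the adjusted threshold in limma. Of all tested genes, 66.7% were higher in KO (54% with equal upper quartiles) and 10.5% had an unadjusted p under 0.05 in limma. *Zbtb16* had WT values of 0.773 and 0.904 TPM and KO values of 4.61 and 2.83 TPM (log2 fold change 1.34, unadjusted p = 0.00487, adjusted p = 0.443 in limma), and *Dusp1*, a MAP kinase phosphatase, had a log2 fold change of 0.92. *Zbtb16* passed the filter of 1 TPM only through the KO libraries, and it is among the genes counted as higher in this list. *Per1*, which is also a gene of the circadian clock, had WT values of 3.84 and 4.07 TPM and KO values of 1.90 and 1.59 TPM (log2 fold change -0.86, unadjusted p = 0.014). In all, 7 genes of the list were higher and 2 lower in KO without overlap. The shares over all tested genes were 34.4% and 10.9% (24.5% and 18.6% with equal upper quartiles). For *Ddit4* the genotypes overlapped, with 2.83 TPM in WT replicate 3 and 2.59 TPM in KO replicate 1. A part of glucocorticoids in these values was not tested.

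The targets of XBP1 and ATF6, the 2 other arms of the response to endoplasmic reticulum stress, were compared library by library with the ATF4 genes. By mean, 13 of 15 were higher in KO and 2 were lower, or 10 higher with equal upper quartiles. Of all tested genes, 66.7% and 54% were higher. The median log2 fold change of the 15 was 0.28 (0.15 with equal upper quartiles). Their direction rested on KO replicate 3, which was the highest library for 12 of the 15 and for 21.6% of all tested genes. Without KO replicate 3, 8 of 15 were higher. The chaperone *Hspa5*, which encodes BiP, had WT values of 259.7 and 255.7 TPM and KO values of 273.8 and 478.1 TPM, and *Creld2* had WT values of 19.2 and 17.5 TPM and KO values of 20.1 and 71.6 TPM. *Creld2* had the smallest p of the list (unadjusted p = 0.123, log2 fold change 1.02, or 0.12 without KO replicate 3), before *Pdia4* and *Dnajc3* (0.42 and 0.38, or 0.16 for each without it). In KO replicate 3 the median deviation of the XBP1 and ATF6 targets from their own mean over the 4 libraries was 0.43 on the log2(TPM + 1) scale, that of the 10 ATF4 genes was -0.19 and that of all tested genes 0.01. The ATF4 genes had their highest median deviation in KO replicate 1 (0.34), where the XBP1 and ATF6 targets had -0.15 and all tested genes 0.15. This split between 2 KO libraries is a description, without a replicate for either.

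**Figure D4:**
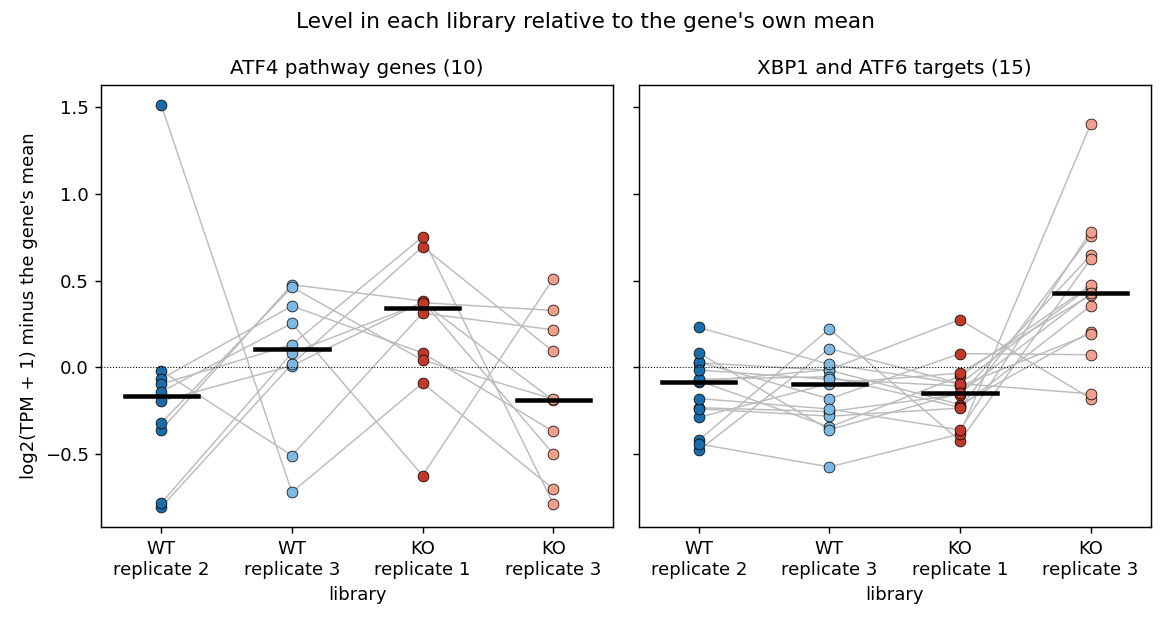
Log2(TPM + 1) minus the gene's mean over the 4 libraries, for the 10 ATF4 pathway genes (left) and the 15 XBP1 and ATF6 targets (right). Grey lines join the values of a gene, and black bars are medians. The bar is highest in KO replicate 1 on the left (0.34) and in KO replicate 3 on the right (0.43), and the point at the top left is *Trib3* in WT replicate 2.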

How the data were processed

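RNA-seq of mouse liver (Illumina MiSeq) was analysed for 2 WT and 2 *Usp21* KO libraries, grouped by their labels. The authors deposited TPM per gene from salmon with mm10, the same values as log2(TPM + 1), and HTSeq counts scaled by TMM, a count-based signal from which whole reads were recovered (102898 to 148164 per library, 100% whole within 0.02 reads). Versions of these tools are not given in the sources used here. A further table, the log of that signal, was not used.

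The 10 members and the gene lists were chosen with earlier results of these data known. The 9581 genes whose mean reached 1 TPM were fitted on log2(TPM + 1) with limma 3.58.1 in R 4.3.3 (eBayes with trend), two-sided, and p-values were adjusted by Benjamini-Hochberg. Each gene's variance was moderated toward the trend with 3.62 prior degrees of freedom, so p-values depend on that trend. No batch or pairing was given, so none entered the model. Named genes below 1 TPM were taken from a fit of all genes above 0. From each list, the 3 tested genes with the smallest unadjusted p were named, beside *Usp21*, *Atf3*, *Cebpb*, *Fgf21*, *Gdf15*, *Phgdh*, *Mthfd2*, *Slc7a11* and the eIF2 kinases. *Sesn1*, *Hspa5*, *Eif2b3*, *Ppp1ca*, *Eif2b5* and *Eif2s1* were named after their values were seen. Exocrine pancreas markers summed to 29.3 to 43.4 TPM (*Prss2*, *Cpa1*, *Pnlip* and *Ctrb1* at 0), erythroid to 466.7 to 650.4, sinusoidal endothelium to 60.5 to 87.8, and stellate cells and fibroblasts to 85.0 to 166.5 TPM. *Gapdh* had 899 to 1115 TPM.

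Loci, lengths and shared 31-base stretches are from GENCODE M21 (GRCm38). For fragment estimates, 200 bases were taken off each length, and the lowest peak of TPM times length in 3032 genes with 1 transcript over 1500 bases was read as 1 fragment. These estimates were not checked against reads. The limma and edgeR fits were tested on simulated data, and the other steps were not. Alternatives tried were a pseudocount of 0.1 or 5, no filter, a mean of at least 5 TPM, equal upper quartiles, no moderation, the TMM-scaled table, each library left out and, chosen after seeing the data, edgeR 4.0.16 on recovered reads.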

Additional observations from a re-analysis of the deposited data

How the results depend on the processing

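No member passed the adjusted threshold under any of the alternatives run, and *Atf5*, *Ddit3*, *Ppp1r15a* and *Chac1* kept their direction in all that gave them a value. All alternatives use the same 4 libraries. For *Atf5* and *Ddit3* they include the TMM-scaled table and edgeR, which rest on 0 to 3 and 4 to 10 reads per library. The number of members higher in KO was 4 and ranged from 4 to 8 with 1 library left out, the number with non-overlapping groups was 3 and ranged from 6 to 7, since a lone library overlaps less easily, the number at 2-fold was 0 and ranged from 0 to 3, and the number with an unadjusted p under 0.05 was 0 and ranged from 0 to 3 (*Ddit3*, *Ppp1r15a* and *Trib3* without WT replicate 3, *Atf5* without WT replicate 2, *Asns* without KO replicate 1). In these fits the lone library is assumed to vary like the others. The median log2 fold change of the members was -0.07 and ranged from -0.18 to 0.40 with 1 library left out. With a pseudocount of 5 it was 0.003 and *Asns* turned to 0.032. With 1 library left out the lowest and highest values were -0.10 and 0.47 for *Atf4*, -1.91 and 0.32 for *Trib3*, -0.80 and 0.73 for *Asns*, -0.68 and 0.45 for *Sesn2*, -0.56 and 0.32 for *Ddit4* and -0.53 and 0.25 for *Psat1*. The TMM-scaled table and edgeR on its reads gave values for 2 members, *Atf5* and *Ddit3*: 2 higher in both, 1 at 2-fold in both (*Atf5*), and a median of 1.68 and 1.34. The count of members higher is lower there because 8 members were at 0, while the 2-fold call and the medians rest on the *Atf5* values of 2.67 and 1.99, from 0 to 3 reads per library. No paired analysis was possible because the groups share only replicate number 3.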
